A study of Mus musculus with 15 samples.

Results

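Hepatocyte aggregates that had spent 24 h in a rotating wall vessel (RWV) were compared with aggregates that had spent 4 h in such a vessel. The comparison used 6 of the 15 arrays of the series, the 3 labelled RWV at 4 h and the 3 labelled RWV at 24 h, and it took in every gene that had a probe set with 1 gene symbol. Of 18193 such genes, 12423 passed a background filter and were tested. The filter judged how a probe set varied over all 15 arrays, the 6 compared included, and did not measure the strength of its signal. All cells were primary hepatocytes of male C57BL/6 mice. No genetic change and no drug is named for any group, and the sources used here give no age of the animals. The other 9 arrays were 3 of freshly isolated cells (t0, the zero point of every value below), 3 of monolayers in a tissue culture dish (TCD) at 4 h and 3 of such monolayers at 24 h. The labels describe the 3 arrays of each group as independent biological replicates, and they do not say which replicates came from the same isolation of cells. The labels name no sort, so cells of other types that came through the isolation may be part of each sample.

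An RWV is a fluid-filled chamber that turns slowly and keeps cells in suspension, so that hepatocytes settle on each other rather than on plastic. In the liver these cells break down amino acids, make urea, bile acids and glucose, detoxify drugs and secrete most plasma proteins, and a network of nuclear receptors and liver transcription factors keeps those genes high. Isolation with enzymes and the first hours of culture are known to switch on early stress and inflammatory genes, and during the following day cultured hepatocytes usually lose liver-specific transcripts and gain cytoskeletal ones.

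Each value is a log2 signal relative to the median of the fresh arrays, so that 0 is the fresh level, a difference of 1 is a 2-fold change, and the absolute level of a gene cannot be read. A gene was called when its Benjamini-Hochberg adjusted p in limma was below 0.05. On the RWV arrays of 4 h the median of 14 hepatocyte identity markers lay between -0.04 and 0.02. On those of 24 h it lay between -0.82 and -0.63, and 13 of the 14 fell between the times. As values are relative to fresh cells, they cannot check the hepatocyte label itself. The median of all genes tested lay between -0.07 and -0.01 on the 6 arrays. The root mean square difference between arrays, over all genes tested, was 0.445 to 0.502 among the 3 arrays of 4 h and 0.411 to 0.444 among the 3 of 24 h, against 1.10 to 1.27 for pairs of 1 array from each time. As a measure of RNA integrity, the Actb control probe sets at the 3' end minus those at the 5' end gave -0.30 to -0.20 at 4 h and -0.26 to -0.22 at 24 h. The same difference for Gapdh was -0.097 to 0.024 at 4 h and -0.063 to -0.055 at 24 h. In bulk samples such as these, fewer cells of a type and less RNA per cell cannot be told apart.

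Between 4 h and 24 h the aggregates changed in 5164 of 12423 genes, 41.6% of those tested. Of these, 3282 rose (26.4%) and 1882 fell (15.1%), while the median change of all genes was 0.04. Changes of at least 2-fold were called higher for 1772 genes (14.3%) and lower for 1212 (9.76%). The falls were larger: a change of at least 4-fold was reached by 522 of the genes that fell and by 393 of those that rose. In 6862 genes (55.2%) the 3 values of 1 time all lay above the 3 of the other. With no background filter 4788 of 18193 genes were called, 3048 higher and 1740 lower. The split between the directions depends on how arrays are set equal. When each array was centred on 6 common reference genes, which themselves changed by between -0.38 (B2m) and 0.82 (Ywhaz), 1881 genes were called higher and 5385 lower, and the median of all genes moved to -0.38. Centred on the median of the genes tested, 3162 were called higher and 1999 lower. The median of 30 hybridisation control probe sets was -0.03, -0.02 and -0.16 on the arrays of 4 h. It was -0.24, -0.36 and -0.45 on those of 24 h. Centring on these controls was not tested.

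The 60 pathway lists examined fell into a few broad groups. The plot of members called by list shows metabolic, secretory and detoxifying functions of the hepatocyte on the lower side, together with endoplasmic reticulum chaperones, early response and interferon genes. Proteasome subunits, tubulins, cytosolic chaperones, ribosomal proteins, tRNA synthetases and DNA replication factors stood on the higher side. With reference gene centring the median of 11 lists turned from above 0 to below 0, and each of these is marked where it is described.

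**Figure D1:**
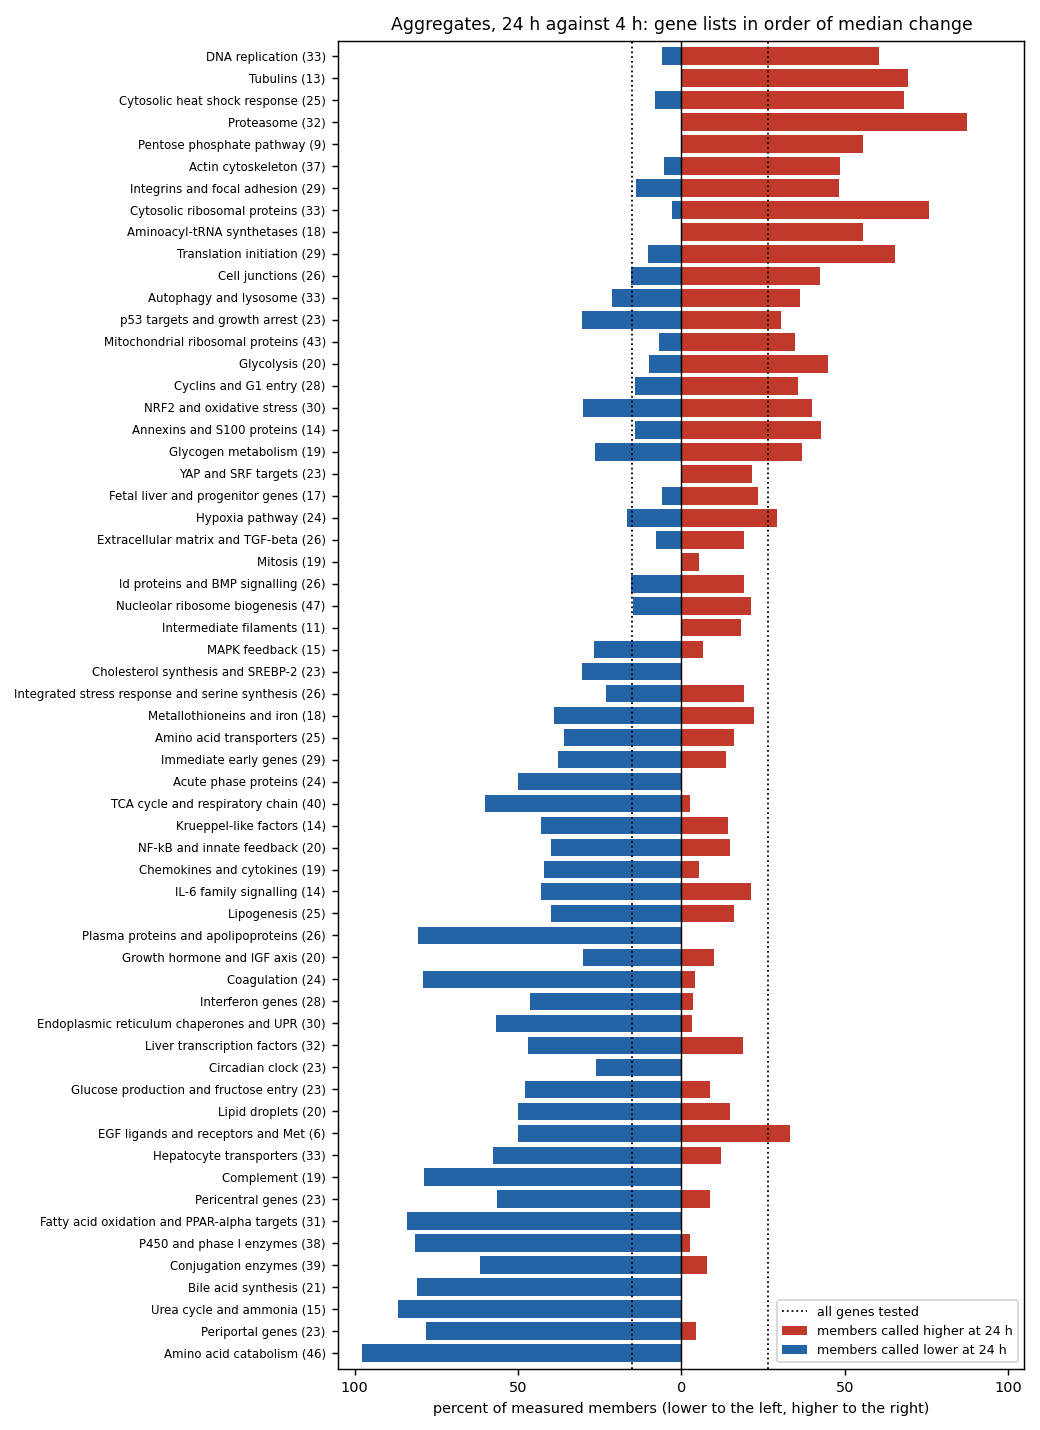
Percent of the measured members of each of 60 pathway lists that were called lower (blue, to the left) or higher (red, to the right) in RWV aggregates at 24 h against 4 h, in order of the median change; the number measured is in brackets. The dotted lines mark all genes tested, 15.1% lower and 26.4% higher. Amino acid catabolism has the longest blue bar, 45 of 46 members, and the proteasome the longest red bar, 28 of 32.

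The largest rise was that of Sox4, a transcription factor of progenitor cells. It read -0.05, 0.02 and 0.59 on the 3 arrays of 4 h and 6.99, 6.90 and 8.44 on those of 24 h. It thus stood near the fresh level at 4 h and far above it at 24 h on every array, a rise of 7.26 ± 0.45 (SE, n = 3 arrays per time, adjusted p = 1.5e-07), or 153-fold. Vim, the intermediate filament of mesenchymal cells, went from 1.74, 0.45 and 1.90 to 8.41, 7.42 and 7.99, a rise of 6.58 ± 0.57. Dpysl2, a tubulin-binding protein of the cytoskeleton, read -0.87, 0.04 and -1.32 and then 5.80, 6.02 and 6.01, a rise of 6.66 ± 0.34. Cyp1a1, the P450 enzyme induced through the aryl hydrocarbon receptor, was at the fresh level at 4 h (-0.05, -0.09 and 0.07) and reached 7.71, 5.95 and 5.46 at 24 h, a rise of 6.40 ± 0.42. For these 4 genes no array of 24 h came within 5 log2 units of the fresh level. The other genes among the 15 largest rises were Fads3 (6.10), Prmt2 (6.08), Prelid2 (5.97), Gipc2 (5.94), Phlda3 (5.88), Anxa3 (5.68), Cachd1 (5.54), Gpnmb (5.48), Cldn4 (5.42), Plp2 (5.35) and Slc25a24 (5.30). Phlda3 is a p53 target, Anxa3 an annexin, Gpnmb a glycoprotein of lysosomes and Cldn4 a tight junction protein. Large folds from a gene near the background at 4 h rest on the floor that the array method sets for weak signals. Sizes also depended on the processing, the choice of probe set included. Over the alternatives described below the rise ran from 2.35 to 7.53 for Sox4 and from 3.33 to 7.04 for Dpysl2. It ran from 5.62 to 6.85 for Vim and from 5.73 to 6.85 for Cyp1a1.

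The largest fall was that of Pck1, the rate-limiting enzyme of glucose production. It read -1.06, -1.79 and -1.91 at 4 h and -10.91, -10.92 and -10.94 at 24 h. The 3 values of 24 h were nearly equal, and the change of -9.34 ± 0.35 (adjusted p = 5.4e-09) was the largest among called genes. Upp2, a liver uridine phosphorylase, went from -1.25, -2.14 and -0.79 to -10.68, -9.86 and -10.71, a change of -9.02 ± 0.42. Ppp1r3c, which targets a phosphatase to glycogen, went from -0.15, 1.62 and 0.82 to -7.82, -5.58 and -7.24. It fell by 7.65 ± 0.64. Hal, the first enzyme of histidine breakdown, fell by 7.17 ± 0.53, and Akr1d1, a reductase of bile acid synthesis, fell by 7.05 ± 0.40. Slco1b2, which takes organic anions up from blood, fell by 6.52 ± 0.38, and Abcg5, which exports sterols into bile, fell by 6.17 ± 0.90. The others among the 15 largest falls were Serpina4-ps1 (-8.02), Hsd3b5 (-7.40), Elovl3 (-6.97), Nlrp12 (-6.59), Abat (-6.11), Clec2h (-6.04), Tdo2 (-6.04) and Saa4 (-5.97). All 30 genes had values of the times that did not overlap, as the rule that chose them required. Over the alternatives the change ran from -9.76 to -6.24 for Pck1, from -9.45 to -7.33 for Upp2 and from -6.54 to -3.09 for Abat.

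**Figure D2:**
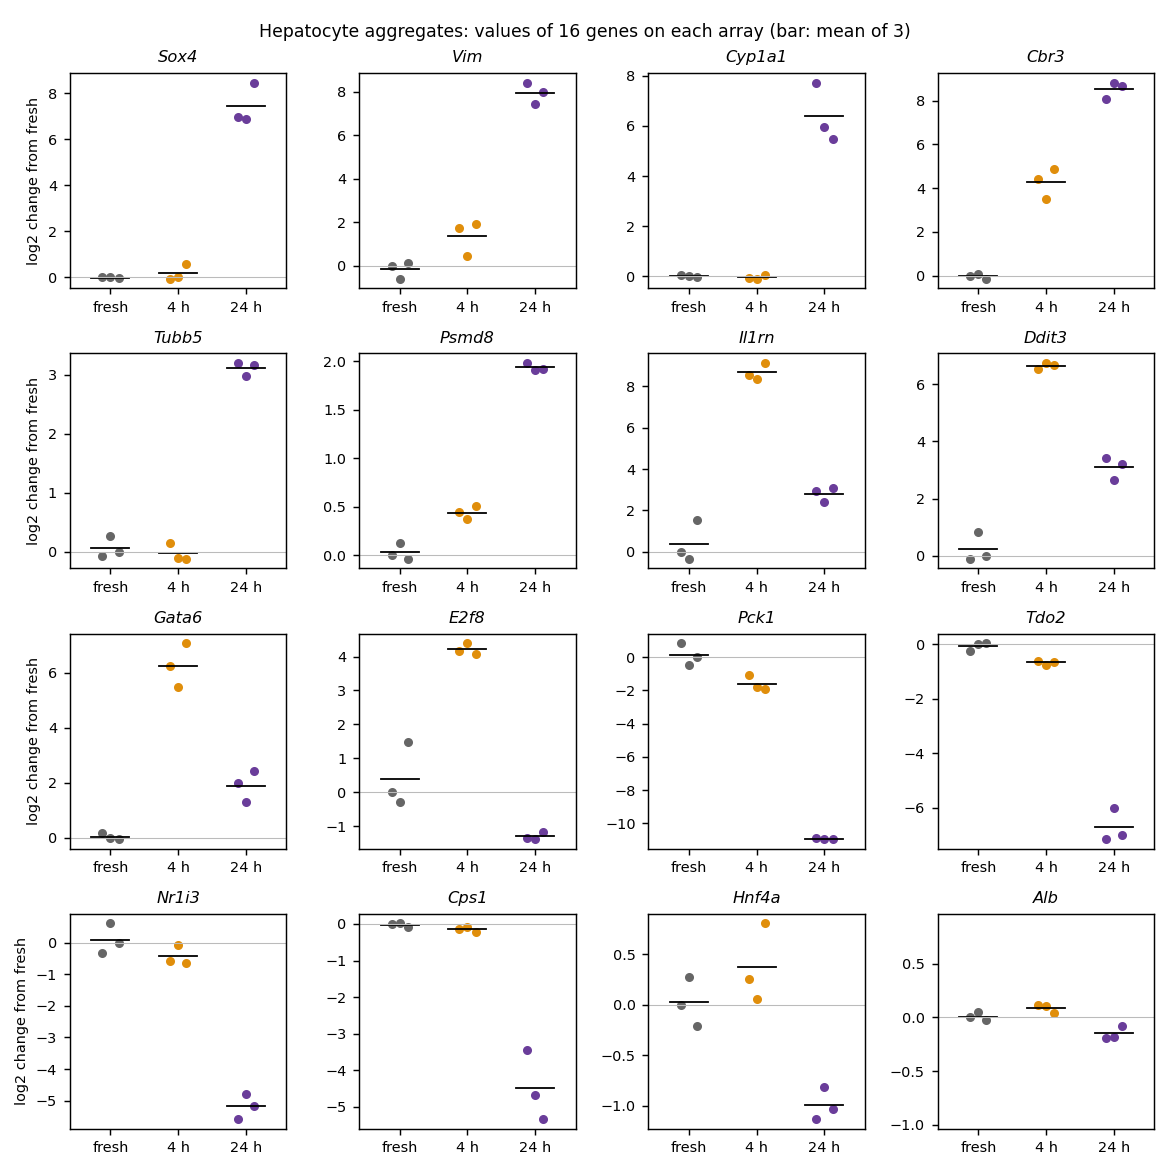
Values of 16 named genes on each fresh, RWV 4 h and RWV 24 h array, as log2 change from the fresh median (each panel has its own vertical scale); points are arrays and bars the mean of 3. Sox4, Vim and Cyp1a1 leave the fresh level between 4 h and 24 h, Il1rn, Ddit3, Gata6 and E2f8 are above it at 4 h and lower at 24 h, and Pck1, Tdo2, Nr1i3 and Cps1 are below it at 24 h.

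Amino acid breakdown was the list with the largest median fall. Of 46 measured enzymes 45 fell and none rose, with a median change of -3.01 against 0.04 for all genes tested. Tdo2, which opens the tryptophan ring, read -0.62, -0.76 and -0.64 at 4 h and -7.14, -6.00 and -7.00 at 24 h. Its change was -6.04 ± 0.30 (adjusted p = 3.3e-08). Agxt, which removes glyoxylate, fell by 5.09 ± 0.35, and Aass, the first enzyme of lysine breakdown, fell by 5.02 ± 0.25. Hpd, an enzyme of tyrosine breakdown, fell by 3.40 ± 0.26.

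The urea cycle and ammonia list showed 13 falls among 15 measured members, no rise and a median of -1.77. Cps1, which fixes ammonia in the mitochondrion, read -0.14, -0.09 and -0.21 at 4 h and -3.46, -4.66 and -5.33 at 24 h, a change of -4.34 ± 0.35. Car5a, the mitochondrial carbonic anhydrase that supplies its bicarbonate, fell by 5.64 ± 0.28. Arg1, the arginase of the last step, fell by 2.76 ± 0.43, and Slc25a15, the ornithine carrier, fell by 2.62 ± 0.18. Amino acid transporters were mixed, with 4 rises and 9 falls among 25. Slc7a11, the cystine importer, rose by 4.28 ± 0.36, while Slc43a1, a carrier of neutral amino acids, fell by 5.85 ± 0.38, Slc1a2, a glutamate importer, fell by 5.48 ± 0.37 and Slc38a3, a glutamine carrier, fell by 3.03 ± 0.39.

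Drug-metabolising enzymes of both phases were mostly called lower. Among P450 and other phase I enzymes 31 of 38 fell and 1, Cyp1a1, rose, with a median of -1.47. Cyp26a1, which degrades retinoic acid, was above the fresh level at 4 h (1.38, 1.36 and 1.04) and at -6.76, -3.11 and -2.46 at 24 h, a change of -5.37 ± 0.93. Aox3, an aldehyde oxidase, fell by 4.69 ± 0.26 and Fmo5, a flavin monooxygenase, fell by 4.49 ± 0.95. Cyp3a11, the major drug-metabolising P450 of mouse liver, fell less: it read 0.16, 0.04 and 0.02 and then -0.67, -0.65 and -0.52, a change of -0.69 ± 0.11 (adjusted p = 3.0e-04). Cyp1a2, which like Cyp1a1 is a target of the aryl hydrocarbon receptor, fell by 1.16, and Ahr itself rose by 0.56; both were picked out after their values were seen. Conjugating enzymes fell in 24 of 39 cases and rose in 3, with a median of -1.49. Sult2a8, a sulfotransferase of bile acids, fell by 4.85 ± 0.27, Inmt, a methyltransferase, fell by 4.41 ± 0.53, Gstm7 fell by 3.98 ± 0.26 and Gstt3 fell by 3.90 ± 0.47; the last pair are glutathione transferases. P450, glutathione transferase and carboxylesterase genes have close copies, and a probe set may read more than 1 of them.

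Bile acid synthesis and export followed. Of 21 genes of bile acid synthesis 17 fell and none rose, with a median of -1.68. Cyp7a1, the rate-limiting enzyme, was already low at 4 h (-3.10, -2.07 and -4.10) and read -8.18, -8.55 and -7.98 at 24 h, a change of -5.15 ± 0.51. Akr1c6, a hydroxysteroid dehydrogenase, fell by 5.15 ± 0.21. Among transporters of the hepatocyte membrane 19 of 33 fell and 4 rose (2 without replicate 3 of 24 h). Slco1a4, an uptake carrier, fell by 4.67 ± 0.55, whereas Abcc4, an export pump of the sinusoidal membrane, read -0.11, -0.05 and -0.05 at 4 h and 3.99, 4.36 and 5.17 at 24 h and rose by 4.58 ± 0.57.

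Secreted proteins fell as groups, though less steeply. Complement showed 15 falls and no rise among 19 genes (median -1.16), coagulation 19 falls and 1 rise among 24 (median -0.67), and other plasma proteins and apolipoproteins 21 falls and no rise among 26 (median -0.57). Mbl1 and Masp2, which start the lectin pathway of complement, changed by -2.32 ± 0.20 and -2.24 ± 0.12. C8a and C8b, parts of its membrane attack complex, changed by -1.85 ± 0.26 and -1.47 ± 0.19. Klkb1, prekallikrein, fell by 4.74 ± 0.21, Serpind1, heparin cofactor, fell by 3.90 ± 0.20, F11, a clotting factor, fell by 2.71 ± 0.22 and Proz fell by 2.70 ± 0.16. Serpina6, the cortisol carrier, fell by 4.07 ± 0.35, Apoa5, a regulator of plasma triglycerides, fell by 3.40 ± 0.39, Hrg fell by 1.75 ± 0.11 and Lcat, which esterifies plasma cholesterol, fell by 1.54 ± 0.10. Alb, the most abundant plasma protein, read 0.12, 0.11 and 0.04 at 4 h and -0.19, -0.18 and -0.08 at 24 h. Its change of -0.24 ± 0.07 had an adjusted p of 0.023, and the call was lost when replicate 1 or 2 of either time was left out (highest adjusted p 0.071). Whether the Alb probe set was near the upper limit of the array was not tested. Acute phase proteins fell in 12 of 24 cases and rose in none. Saa4, a constitutive serum amyloid, fell by 5.97 ± 0.67, Hamp, the iron hormone hepcidin, fell by 3.91 ± 0.53 and Crp fell by 2.17 ± 0.19. Steap4, an iron reductase, had been raised at 4 h (3.57, 3.52 and 3.19) and read -1.83, -0.79 and 0.05 at 24 h, a change of -4.28 ± 0.49.

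Fuel metabolism moved in 2 directions. The list of glucose production and fructose entry had 11 falls and 2 rises among 23 genes, with a median of -0.72. Besides Pck1, G6pc, the phosphatase that releases glucose, fell by 3.40 ± 0.44. Ppargc1a, a coactivator of glucose production and mitochondrial genes, read 1.48, 1.59 and 0.97 at 4 h and -3.68, -3.18 and -3.87 at 24 h, so it went from above the fresh level to below it, a change of -4.92 ± 0.58. Glycolysis had 9 rises and 2 falls among 20 genes and a median of 0.27, which was -0.15 with reference gene centring. Pkm, the pyruvate kinase of growing cells, read 3.70, 3.68 and 4.09 and then 8.26, 7.14 and 8.32, a rise of 4.09 ± 0.30. Pfkp, the platelet type of phosphofructokinase, rose by 4.25 ± 0.77, with replicate 2 at 1.65 and the other 24 h arrays at 5.38 and 5.34. Slc2a2, the glucose transporter of hepatocytes, fell by 1.65 ± 0.21. In the pentose phosphate list 5 of 9 genes rose and none fell (3 and 2 with reference gene centring). Pgd rose by 2.81 ± 0.22 and Tkt by 1.71 ± 0.14. Glycogen genes were split (7 rises, 5 falls, of 19, with 3 falls without replicate 1 of 4 h or 3 of 24 h, with a median of 0.12 that was -0.31 with reference gene centring): Pygb, the brain type of glycogen phosphorylase, rose by 3.57 ± 0.31 and Gbe1, the branching enzyme, by 2.14 ± 0.09.

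Fat oxidation fell without exception among the members called. The list of fatty acid oxidation and PPAR-alpha targets had 26 falls among 31 genes and a median of -1.27. Acot1, an acyl-CoA thioesterase, fell by 4.60 ± 0.80, Fabp1, the liver fatty acid binding protein, fell by 2.97 ± 0.22 and Cpt1a, the gate for fatty acids into mitochondria, fell by 2.63 ± 0.49. The citrate cycle and respiratory chain fell more mildly, with 24 falls and 1 rise among 40 genes and a median of -0.40. Idh2, Mdh1 and Fh1 of the citrate cycle changed by -1.45 ± 0.18, -1.26 ± 0.10 and -1.17 ± 0.10, while Cs, citrate synthase, rose by 1.39 ± 0.11 on 2 called probe sets. Lipogenesis had 10 falls and 4 rises among 25 genes. Elovl3, an elongase of very long fatty acids, fell by 6.97 ± 1.13, Thrsp fell by 3.35 ± 0.40 and Elovl2 fell by 1.97 ± 0.19. Scd2, a desaturase that adult hepatocytes express little, read 0.09, 0.04 and -0.06 and then 4.14, 3.69 and 4.30, a rise of 4.02 ± 0.38. Cholesterol synthesis had 7 falls and no rise among 23 genes (4 falls without replicate 2 of 4 h or 1 of 24 h, 11 with reference gene centring), and Ebp fell by 1.42 ± 0.12 and Stard4 fell by 1.29 ± 0.18. Lipid droplet genes fell in 10 of 20 cases (6 without replicate 1 of 24 h) and rose in 3; the esterases Ces1d and Ces1g changed by -3.76 ± 0.56 and -2.25 ± 0.32, and Fitm1, which forms droplets, fell by 2.06 ± 0.12.

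Liver transcription factors were divided. Of 32 measured, 15 fell, 6 rose and 11 were not called, and the median was -0.71. Hnf4a, a nuclear receptor at the centre of the network, read 0.25, 0.06 and 0.80 at 4 h and -1.13, -0.81 and -1.04 at 24 h. The times did not overlap, and the change was -1.36 ± 0.23 (adjusted p = 4.1e-04). Cebpa read -0.66, -1.12 and -0.65 and then -2.18, -1.95 and -1.90, a change of -1.20 ± 0.18. Nr0b2, a corepressor induced by the bile acid receptor, fell by 5.67 ± 0.40, and the drug-sensing receptors Nr1i3 and Nr1i2 changed by -4.75 ± 0.25 and -3.08 ± 0.26. Gata6, an endoderm factor, was strongly raised at 4 h (6.23, 5.46 and 7.06) and lower at 24 h (1.98, 1.29 and 2.44), a change of -4.35 ± 0.51. The 6 factors that rose were Foxa1 (1.53), Tbx3 (1.13), Atf5 (1.08), Foxa2 (0.89), Onecut2 (0.60) and Ahr (0.56), given here after their values were seen. With reference gene centring 2 members were called higher and 16 lower.

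Genes that mark the zones of the lobule fell on both sides. Among genes of the periportal zone 18 of 23 fell and 1 rose (median -1.93), and among those of the pericentral zone 13 of 23 fell and 2 rose (median -1.16). Etnppl and Aldh1b1, periportal enzymes, changed by -4.79 ± 0.75 and -4.51 ± 0.26. Oat and Gulo, on the pericentral list, changed by -4.24 ± 0.18 and -2.41 ± 0.23. Whether the zones differed from each other was not tested. In the growth hormone and IGF axis 6 of 20 genes fell and 2 rose (12 and 1 with reference gene centring). Igf1 fell by 2.54 ± 0.29, its carrier Igfals fell by 1.90 ± 0.18 and the receptor Ghr fell by 1.89 ± 0.37. In the circadian clock list 6 of 23 fell and none rose, with a median of -0.71. Ciart, a clock repressor, fell by 2.43 ± 0.66, and Rora was uncertain because 1 of its probe sets was called higher and 4 lower. The sources used here do not give the time of day of collection.

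Immediate early genes moved in both directions. Of 29 measured, 11 fell, 4 rose and 14 were not called, and with reference gene centring 17 fell and 3 rose. The number that rose was 2 without replicate 2 of 4 h or replicate 3 of 24 h. Ier3, an early gene of cell survival, had the largest rise, from 1.94, 1.91 and 3.61 to 5.42, 5.03 and 5.99 (3.00 ± 0.89, adjusted p = 0.017). Its call was lost without replicate 1 or 2 of 4 h or replicate 3 of 24 h (highest adjusted p 0.062). Klf10 read 3.02, 3.98 and 3.59 at 4 h and 0.63, 0.76 and 0.58 at 24 h, a change of -2.87 ± 0.42. Maff, a small bZIP factor, went from 4.59, 4.27 and 4.66 to 2.12, 1.07 and 2.33, a change of -2.67 ± 0.69. Both remained above the fresh level on all arrays. Fosb, which was near the fresh level at 4 h (0.50, -0.91 and -1.10), read -3.88, -3.89 and -4.93 at 24 h and fell by 3.73 ± 0.51. The phosphatases Dusp5 and Dusp14, which switch off MAP kinases, changed by -3.77 ± 0.20 and -3.21 ± 0.41, within a MAPK feedback list of 15 in which 4 fell and 1 rose; Errfi1, which restrains the EGF receptor, fell by 0.92 ± 0.16. In the EGF family 3 of 6 fell and 2 rose: the receptor Egfr fell by 2.77 ± 0.44 on 4 probe sets and the ligand Btc fell by 2.09 ± 0.33, while the ligand Tgfa rose by 1.63 ± 0.23 and the receptor Erbb3 by 1.61 ± 0.32.

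Among inflammatory genes, falls outnumbered rises and many members were not called. In the NF-kB and innate feedback list 8 of 20 fell and 3 rose, with a median of -0.45 that was -0.09 without replicate 2 of 24 h. In the chemokine and cytokine list 8 of 19 fell and 1 rose; 5 fell without replicate 1 of 24 h and 13 with reference gene centring. Il1rn, the antagonist of the interleukin 1 receptor, was among the genes furthest above fresh cells at 4 h (8.55, 8.36 and 9.12) and read 2.94, 2.40 and 3.11 at 24 h. It fell by 5.86 ± 0.54 (adjusted p = 4.0e-06). Cxcl10, an interferon-induced chemokine, fell by 3.73 ± 0.82 and Ccl9 fell by 3.47 ± 0.29, whereas Cxcl16 rose by 3.70 ± 0.52. Tlr2, a receptor for bacterial lipoprotein, fell by 2.65 ± 0.68, Bcl3, a nuclear partner of NF-kB, fell by 2.45 ± 0.27 and Rel, an NF-kB subunit, fell by 1.84 ± 0.49. In the IL-6 family 6 of 14 fell and 3 rose. Socs3, the feedback inhibitor, fell by 3.95 ± 0.52 and the receptor Il6ra fell by 2.55 ± 0.32. The receptor Osmr rose by 3.44 ± 0.38, and Lepr, the leptin receptor, read -0.10, -0.01 and 0.36 and then 3.24, 4.53 and 5.14, a rise of 4.22 ± 0.34.

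Interferon genes fell in 13 of 28 cases (8, among fewer measured, without probe sets of shared sequence) and rose in 1, with a median of -0.67. Ifit1, which binds foreign RNA, read 0.90, 2.24 and 3.23 at 4 h and -5.24, -2.71 and -3.01 at 24 h, so it went from above the fresh level to well below it, a change of -5.77 ± 0.86. Ifit3 went from 0.05, 1.79 and 2.65 to -3.62, -2.11 and -2.40, a change of -4.21 ± 0.88, and Gbp2, a guanylate-binding protein, fell by 2.70 ± 0.70. The windows below show where their promoters hold the letters of an interferon-stimulated response element, GAAA repeated 2 bases apart, read on either strand (capitals; here in reverse complement). Such a match was present in 11 of 32 RefSeq promoters of the list (34.4%) and in 3.44% of all 32851 promoters of the table, each 300 bases long, from 250 before to 50 after the start. A match is a description of the letters and does not show that a factor binds. The windows are RefSeq sequence of GRCm38.p6, 5′ to 3′ on the gene's strand.
Ifit1 (chr19:34640764-34640853, + strand): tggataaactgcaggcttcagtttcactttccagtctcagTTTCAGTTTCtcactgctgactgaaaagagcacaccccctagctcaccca
Ifit3 (chr19:34583367-34583456, + strand): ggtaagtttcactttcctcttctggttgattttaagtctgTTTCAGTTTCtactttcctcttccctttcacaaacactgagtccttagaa

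Protein folding genes of the reticulum and of the cytosol were mostly called in opposite directions. In the list of endoplasmic reticulum chaperones and the unfolded protein response 17 of 30 genes fell and 1 rose (median -0.67). The number that fell was 9 without replicate 2 of 4 h, 10 without replicate 1 of 24 h and 11 without replicate 2 of 24 h. In the list of the cytosolic heat shock response 17 of 25 rose and 2 fell (median 1.14). Ern1, the kinase and nuclease that senses unfolded protein in the reticulum, read 2.20, 2.84 and 2.57 at 4 h and 0.13, 0.01 and 0.07 at 24 h. It was back at the fresh level, a change of -2.46 ± 0.16 (adjusted p = 2.5e-07), on 4 probe sets. Herpud1, of the degradation machinery there, fell by 1.72 ± 0.27, Sdf2l1, a co-chaperone, fell by 2.11 ± 0.46 and Ero1b, an oxidase of disulphide formation, fell by 1.91 ± 0.29. Hspa5, the main chaperone of the reticulum, was not called (-0.43, adjusted p = 0.19), and the member that rose was Ero1a (1.19); both were picked out after their values were seen.

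The cytosolic chaperones moved the other way. Hspa4l read -0.56, 0.35 and -0.30 and then 2.58, 3.05 and 3.19, a rise of 3.11 ± 0.42 on 5 probe sets. Hspb1, a small heat shock protein, went from 1.15, 0.88 and 0.30 to 3.13, 3.09 and 3.22, a rise of 2.37 ± 0.53. Hspa1a, the inducible Hsp70, read 4.14, 0.06 and 1.99 at 4 h and 6.06, 4.90 and 6.08 at 24 h. Its 4 h arrays spread over 4 log2 units, and it rose by 3.61 ± 0.86. The value is uncertain, since its near-identical copy Hspa1b may share the probes; the probe set named for Hspa1b changed by 1.95 (adjusted p = 0.062). Hspb8, a small heat shock protein that works with autophagy, fell by 2.50 ± 0.20. With reference gene centring 15 members of the cytosolic list were called higher and 4 lower, and 23 of the reticulum list lower and none higher.

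The promoters of the 2 lists carried different letters. The endoplasmic reticulum stress element, CCAAT and CCACG with 9 bases between them on either strand, was found in 10 of 27 promoters of the reticulum list (37.0%) and in 0.119% of all promoters of the table. It was found in none of the 30 promoters of the cytosolic list. The heat shock motif GAANNTTC was found in 13 of the 30 promoters of the cytosolic list (43.3%), in 7.86% of all promoters and in none of the 27 of the reticulum list. The windows below show the matches, in capitals, of 5 called reticulum genes, all of which fell, and of 3 cytosolic genes that rose. A match was held by 10 genes of the reticulum list and by 12 of the cytosolic list. Windows were made only for called genes, so holders that were not called are not shown. Windows of the other called holders are not printed. Whether a match goes with the direction of change was not tested. These directions are those of most called members of each list. In the reticulum list 17 fell and 1 rose, and in the cytosolic list 17 rose and 2 fell. Of 8 called cytosolic genes with a match 7 rose, and Hspb8, whose match lies just after its start, fell. The first 5 changed by -0.75 (Hsp90b1), -0.63 (Calr), -0.58 (Pdia6), -1.41 (Dnajc3) and -1.91 (Ero1b), and the last 3 rose by 3.61 (Hspa1a), 2.37 (Hspb1) and 1.48 (Fkbp4).
Hsp90b1 (chr10:86705493-86705591, - strand): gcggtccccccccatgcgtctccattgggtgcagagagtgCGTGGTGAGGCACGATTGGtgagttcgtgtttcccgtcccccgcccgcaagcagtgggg
Calr (chr8:84847035-84847133, - strand): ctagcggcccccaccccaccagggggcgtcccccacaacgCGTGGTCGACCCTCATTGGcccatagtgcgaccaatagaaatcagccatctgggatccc
Pdia6 (chr12:17266451-17266549, + strand): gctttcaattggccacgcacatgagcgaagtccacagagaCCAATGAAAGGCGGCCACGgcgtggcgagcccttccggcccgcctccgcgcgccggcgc
Dnajc3 (chr14:118937787-118937885, + strand): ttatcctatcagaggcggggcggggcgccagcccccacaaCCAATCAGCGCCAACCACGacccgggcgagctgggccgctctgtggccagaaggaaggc
Ero1b (chr13:12565642-12565740, + strand): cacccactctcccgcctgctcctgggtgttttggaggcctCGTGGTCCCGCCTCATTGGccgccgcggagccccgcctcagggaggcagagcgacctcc
Hspa1a (chr17:34972213-34972300, - strand): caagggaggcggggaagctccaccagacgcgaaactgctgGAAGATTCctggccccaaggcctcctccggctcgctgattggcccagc
Hspb1 (chr5:135887782-135887869, + strand): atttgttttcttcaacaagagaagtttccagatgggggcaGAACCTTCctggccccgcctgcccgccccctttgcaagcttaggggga
Fkbp4 (chr6:128438760-128438847, - strand): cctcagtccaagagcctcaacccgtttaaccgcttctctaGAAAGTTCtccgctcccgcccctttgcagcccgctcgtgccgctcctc

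**Figure D3:**
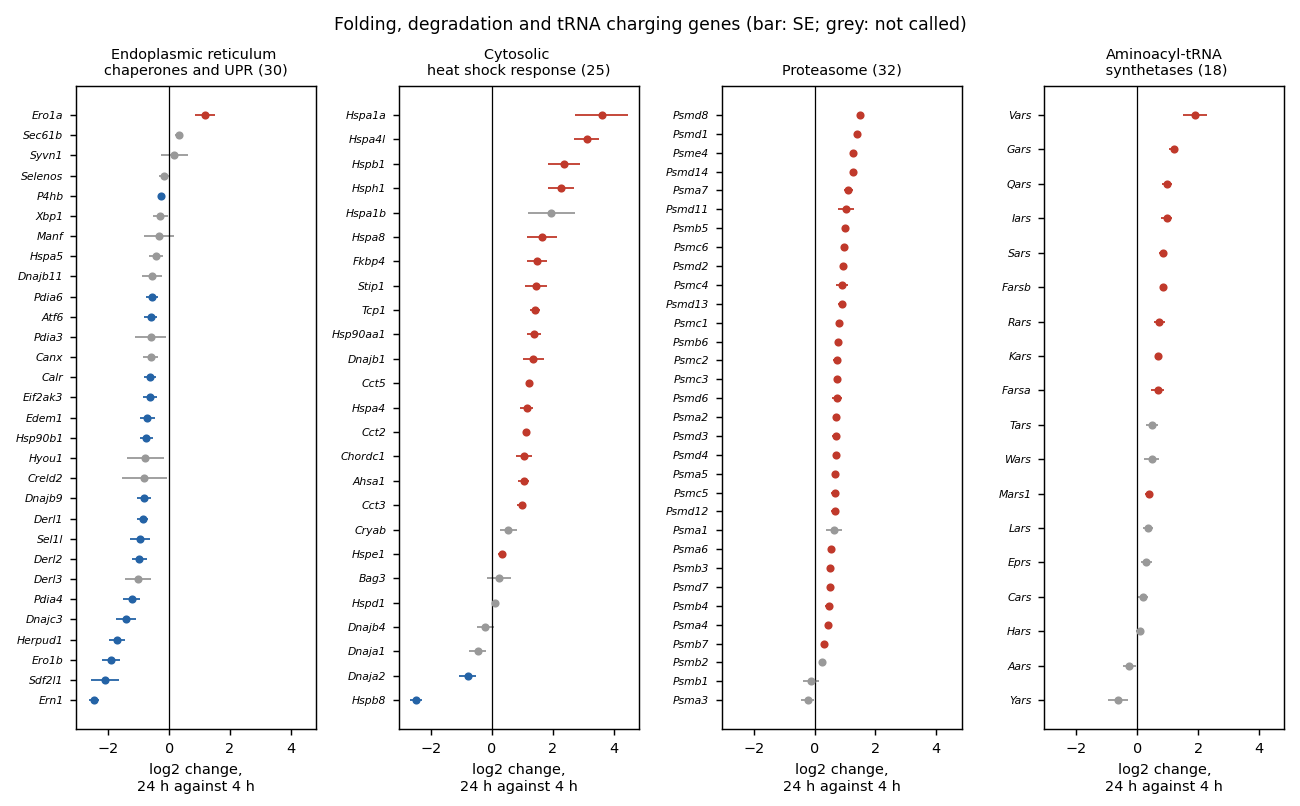
Log2 change in RWV aggregates, 24 h against 4 h, of each measured member of 4 lists; points are the estimates, bars the SE, red and blue mark genes called higher and lower, grey genes not called. Most points of the reticulum list lie left of 0 (17 of 30 called lower) and most of the cytosolic heat shock and proteasome lists right of it (17 of 25 and 28 of 32 called higher).

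Proteasome subunits rose almost as a block. Of 32 measured, 28 rose and none fell, with rises of 0.31 to 1.50 and a median of 0.73. Psmd8 of the regulatory particle read 0.45, 0.37 and 0.50 at 4 h and 1.98, 1.91 and 1.92 at 24 h, a rise of 1.50 ± 0.08 (adjusted p = 4.7e-08). Psmd1 rose by 1.39 ± 0.09, the activator Psme4 by 1.27 ± 0.10 and the deubiquitinase Psmd14 by 1.25 ± 0.11. Each was small beside the largest changes. For all 4 genes every array of 24 h lay above every array of 4 h, as the rule that chose them required. With reference gene centring 14 of the 32 were called higher and 1 lower. Autophagy and lysosome genes were mixed (12 rises and 7 falls among 33, with a median of 0.30 that was -0.13 with reference gene centring). Sqstm1, the cargo receptor p62, read 6.25, 6.89 and 5.73 at 4 h and 4.41, 3.65 and 4.40 at 24 h, a change of -2.14 ± 0.29.

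Genes of protein synthesis were mostly called higher, and how many depended on the centring. Of 33 cytosolic ribosomal proteins 25 rose and 1 fell (median 0.58), of 29 initiation factors 19 rose and 3 fell (median 0.53) and of 18 tRNA synthetases 10 rose and none fell (median 0.58). Centred on reference genes, these counts were 11 and 2, 6 and 4, and 7 and 3, with medians of 0.15, 0.11 and 0.15. Without probe sets of shared sequence 9 ribosomal proteins and 6 synthetases were called higher, among fewer measured. Rpl14 rose by 1.88 ± 0.25 and Rps19 by 1.16 ± 0.10; ribosomal proteins have many processed copies, so their probe sets are uncertain. Vars, Gars and Iars, which charge tRNA with valine, glycine and isoleucine, rose by 1.89 ± 0.38, 1.19 ± 0.15 and 0.96 ± 0.19. Eif4b and Eif5 rose by 1.16 ± 0.25 and 0.99 ± 0.16, while Eif4e, which binds the cap of mRNA, read 6.78, 6.93 and 6.76 at 4 h and 3.71, 2.42 and 3.25 at 24 h. Its change of -3.70 ± 0.36 was shared by 3 of its 4 probe sets, and Eif1ax was uncertain, with 2 probe sets called higher and 1 lower.

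The integrated stress response, in which the factor ATF4 raises amino acid supply, had 5 rises and 6 falls among 26 genes (3 and 10 with reference gene centring). Ddit3, which encodes CHOP, was at 6.54, 6.73 and 6.67 at 4 h and at 3.44, 2.66 and 3.21 at 24 h, a change of -3.55 ± 0.23 that left it above the fresh level on all 3 arrays. Chac1, which breaks down glutathione, fell by 2.46 ± 0.66. Slc3a2, the partner chain of several amino acid carriers, rose by 1.65 ± 0.17 together with Slc7a11. The ATF4 motif TGATGNAA was found in 7 of 28 promoters of this list (25%) and in 5 of 12 of the tRNA synthetases (41.7%), against 3.97% of all promoters. Among its holders were Chac1, which fell, and Slc7a11, Gars and Iars, which rose. Ribosome biogenesis in the nucleolus had been raised at 4 h, with a median over the list of 1.63, and was at 1.69 at 24 h. Of 47 genes 10 rose (21.3%) and 7 fell (14.9%), against 26.4% and 15.1% of all genes tested. With reference gene centring 6 rose and 21 fell, with a median of -0.45. Npm1 rose by 1.45 ± 0.11 and Nhp2 by 1.42 ± 0.13, and Heatr1 fell by 1.87 ± 0.22. Mitochondrial ribosomal proteins had 15 rises and 3 falls among 43, with Mrpl40 up by 1.23 ± 0.11, Mrpl45 by 1.09 ± 0.10 and Mrpl33 by 0.98 ± 0.10, Mrpl47 at -2.15 ± 0.39 and a median of 0.29 that was -0.13 with reference gene centring.

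Genes of DNA replication were called higher more often than genes of mitosis, a contrast that was not tested. Of 33 replication genes 20 rose and 2 fell, with a median of 1.22. Mcm3, a subunit of the replicative helicase, read -0.39, -0.98 and 0.33 at 4 h and 3.09, 3.34 and 3.68 at 24 h, a rise of 3.72 ± 0.47, with all 4 probe sets called higher. Fen1, which trims Okazaki fragments, rose by 3.13 ± 0.32. The pair that fell was Tk1, thymidine kinase (-5.90 ± 0.34), and Mcm10 (-5.37 ± 0.71). When probe sets of shared sequence were left out, the adjusted p of Mcm10 was 0.94. Of 19 mitosis genes 1 rose, Mad2l1 of the spindle checkpoint, by 1.79 ± 0.27, none fell and the median was -0.02; with reference gene centring 12 of them were called lower. Cyclins and G1 genes had 10 rises and 4 falls among 28 and a median of 0.24, which was -0.19 with reference gene centring. E2f8, a repressor of the cell cycle, read 4.18, 4.39 and 4.08 at 4 h and -1.34, -1.37 and -1.16 at 24 h, a change of -5.51 ± 0.40. Ccnd1, cyclin D1, read 0.30, -2.38 and -0.14 and then -4.95, -4.96 and -4.26, a change of -3.98 ± 1.08, and Rbl1, a relative of the retinoblastoma protein, rose by 2.47 ± 0.32. Among p53 targets 7 of 23 rose and 7 fell, with a median of 0.29 that was -0.13 with reference gene centring. Phlda3 read 0.15, 0.23 and 0.26 and then 6.04, 6.11 and 6.15, and Ccng1 rose by 2.95 ± 0.17, while Gadd45g and Gadd45b changed by -4.13 ± 0.25 and -3.57 ± 0.54.

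Antioxidant genes were divided. In the NRF2 list 12 of 30 rose and 9 fell, with a median of 0.22 that was -0.21 with reference gene centring. Cbr3, a carbonyl reductase, read 4.43, 3.53 and 4.86 at 4 h and 8.08, 8.80 and 8.65 at 24 h, a rise of 4.24 ± 0.54. Sod2, the mitochondrial superoxide dismutase, fell by 3.13 ± 0.39 on 4 probe sets, and Nfe2l2, which encodes NRF2 itself, was uncertain because 1 probe set was called in each direction. Among metallothionein and iron genes 4 of 18 rose and 7 fell (22.2% and 38.9%, against 26.4% and 15.1% of all genes tested). The number that rose was 1 with reference gene centring and 1 or 2 when replicate 1 of 4 h or any replicate of 24 h was left out; Slc30a10, a manganese exporter, fell by 2.62 ± 0.65. In the hypoxia list 7 of 24 rose (4 when any replicate of 4 h or replicate 1 of 24 h was left out) and 4 fell. These shares, 29.2% and 16.7%, were near the 26.4% and 15.1% of all genes tested. The list median was 0.00, and it was -0.42 with reference gene centring. P4ha2, a collagen prolyl hydroxylase, rose by 3.51 ± 0.55 and Pfkfb3, an activator of glycolysis, fell by 2.79 ± 0.57, while Higd1a was uncertain, with 1 probe set called higher and 2 lower.

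The tubulin, actin and focal adhesion lists had 69.2%, 48.6% and 48.3% of members called higher, against 26.4% of all genes tested. Of 13 tubulin and microtubule genes 9 rose and none fell (median 1.22), of 37 actin genes 18 rose and 2 fell (median 0.65) and of 29 integrin and focal adhesion genes 14 rose and 4 fell (median 0.61). Centred on reference genes, these were 8 and 0, 12 and 8, and 11 and 5, with medians of 0.79, 0.22 and 0.19, and with the mean of probe sets focal adhesion had 10 rises, 3 falls and a median of 0.26. Tubb5 read 0.14, -0.10 and -0.12 at 4 h and 3.20, 2.98 and 3.17 at 24 h, a rise of 3.14 ± 0.12 (adjusted p = 6.6e-09). Tubb2b rose by 4.66 ± 0.49, with replicate 2 at 3.02 and the other 24 h arrays at 5.28 and 5.40. Tuba1a rose by 2.57 ± 0.32 and Map4, which stabilises microtubules, by 1.89 ± 0.21. Flna, which cross-links actin, rose by 2.78 ± 0.27, Tagln2 by 3.15 ± 0.71 and Tpm1, a tropomyosin, by 2.17 ± 0.19. Actb itself read 0.73, 0.92 and 0.76 and then 0.78, 0.73 and 0.85, a change of -0.01 ± 0.11 (adjusted p = 0.98). Itga6, a laminin receptor, rose by 2.84 ± 0.40, Pdlim7 by 4.04 ± 0.49 and Lims1, an adaptor of integrin signalling, by 3.04 ± 0.36.

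Junction genes rose in 11 of 26 cases and fell in 4 (9 and 8 with reference gene centring). Cldn4 read -0.10, -0.01 and -0.07 at 4 h and 6.06, 3.79 and 6.23 at 24 h, Cldn3 rose by 2.47 ± 0.19 and Cgn, cingulin, by 2.62 ± 0.42, whereas Cldn14 fell by 2.29 ± 0.16. Annexins and S100 proteins had 6 rises and 2 falls among 14, with a median of 0.14 that was -0.28 with reference gene centring. Anxa2 went from 7.71, 7.45 and 8.39 to 11.29, 10.37 and 11.46, a rise of 3.19 ± 0.31, S100a6 rose by 4.62 ± 0.91 and Anxa5 by 1.81 ± 0.16. Targets of YAP and SRF had 5 rises and no fall among 23 (21.7% higher, against 26.4% of all genes; 3 rises without replicate 2 of 4 h or 3 of 24 h; 2 rises and 6 falls with reference gene centring), with a median of 0.08 that was -0.34 with reference gene centring. Ajuba rose by 4.43 ± 0.85, and Ccn2, connective tissue growth factor, went from -0.11, -0.02 and 0.15 to 3.06, 3.18 and 2.84, a rise of 3.02 ± 0.62. Matrix and TGF-beta genes had 5 rises and 2 falls among 26 (19.2% higher; 3 rises without replicate 1 or 2 of 4 h or 3 of 24 h; 3 rises and 8 falls with reference gene centring). Nid1, a basement membrane linker, rose by 4.08 ± 0.54 and the membrane protease Mmp14 by 2.20 ± 0.38. Of 11 intermediate filament genes 2 rose (18.2%, against 26.4% of all genes), Vim among them.

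Lists of fetal liver and of developmental signals were called to differing extents. The shares were 29.4% of fetal and progenitor genes, 34.6% of Id and BMP genes and 57.1% of Krueppel-like factors, against 41.6% of all genes tested. In the fetal and progenitor list 4 of 17 rose (23.5%) and 1 fell (5.88%), against 26.4% and 15.1% of all genes tested. The list median was 0.06, and it was -0.36 with reference gene centring. Afp, the fetal counterpart of albumin, read -0.65, -0.44 and -0.53 at 4 h and 3.34, 3.12 and 3.49 at 24 h, a rise of 3.86 ± 0.28 on 3 probe sets. Sox9, a factor of bile duct cells and progenitors, was at 6.16, 6.48 and 5.95 at 4 h and at 3.87, 2.45 and 3.86 at 24 h, a change of -2.81 ± 0.69. Aldoa rose by 1.39 ± 0.22. In the list of Id proteins and BMP signals 5 of 26 rose (19.2%) and 4 fell (15.4%). With reference gene centring 1 rose and 7 fell, and 2 or 3 rose when any replicate of 4 h or replicate 3 of 24 h was left out. Id1 rose by 3.59 ± 0.65, and the activin chains Inhba and Inhbc changed by -3.54 ± 0.41 and -2.62 ± 0.31. Krueppel-like factors had 2 rises and 6 falls among 14; Klf16 rose by 3.17 ± 0.49, Klf7 by 1.57 ± 0.29 and Klf9 fell by 2.35 ± 0.33 on 6 probe sets.

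Markers of other cell types were measured on the same arrays. Of 15 Kupffer cell and macrophage markers 6 were called higher and none lower, with a median change of 1.39. They did not move alike on the 3 arrays of 24 h: the median over the list was 2.50 in replicate 1, -0.02 in replicate 2 and 1.001 in replicate 3, against -0.33 to -0.01 on the arrays of 4 h. Marco, a scavenger receptor, read -0.05, -0.06 and -0.08 at 4 h and 3.12, -0.02 and 2.14 at 24 h. Vsig4, a complement receptor of resident macrophages, went from -0.60, -1.25 and -1.83 to 2.50, -0.32 and 0.90, and C1qc, a chain of complement C1q, from -0.26, -1.25 and -0.23 to 3.07, 0.09 and 1.99. Their changes were 1.81 ± 0.55, 2.25 ± 0.63 and 2.30 ± 0.67, and none of these 3 calls held in all alternatives. The call of Marco was lost without replicate 1 or 3 of 24 h, that of C1qc without replicate 2 of 4 h or 1 of 24 h, and all 3 when the fit held no other arrays, with highest adjusted p of 0.13 for Marco, 0.069 for C1qc and 0.064 for Vsig4. Lyz2, lysozyme, rose by 3.22 ± 0.76. Clec4f, the marker that defines mouse Kupffer cells, read -0.22, -0.39 and -0.14 at 24 h, and Cd163 and Ptprc were within 0.4 of the fresh level on all 3 of those arrays. The number of the 15 called higher was 10 without replicate 2 of 24 h, 3 without replicate 1 and 2 when the fit held only the 6 arrays compared. The count of all genes called was 4639 without replicate 2. Cd68 behaved differently from the rest, at 7.18, 7.56 and 6.89 at 4 h and 8.71, 8.79 and 8.84 at 24 h. What part these cells have in the changes of other genes was not tested.

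Of 11 markers of sinusoidal endothelium 1 fell, Stab2, fell by 1.30 ± 0.31, and none rose. Of 8 stellate cell and fibroblast markers none was called, though 6 were called lower with reference gene centring; Reln read 2.06 in replicate 1 and -0.04 and 0.20 in the others at 24 h (0.91 ± 0.42, adjusted p = 0.11). Cholangiocyte markers had 1 fall among 4 (Sox9), erythroid markers 1 among 2 (Alas2, which fell by 2.16 ± 0.13), and neither of 2 neutrophil markers nor of 2 B cell markers was called (S100a9 0.16, Cd79b -0.11). No T or NK cell marker passed the background filter. The median over the stellate list was -0.07 to -0.02 on the arrays of 4 h and -0.04 to 0.02 on those of 24 h.

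**Figure D4:**
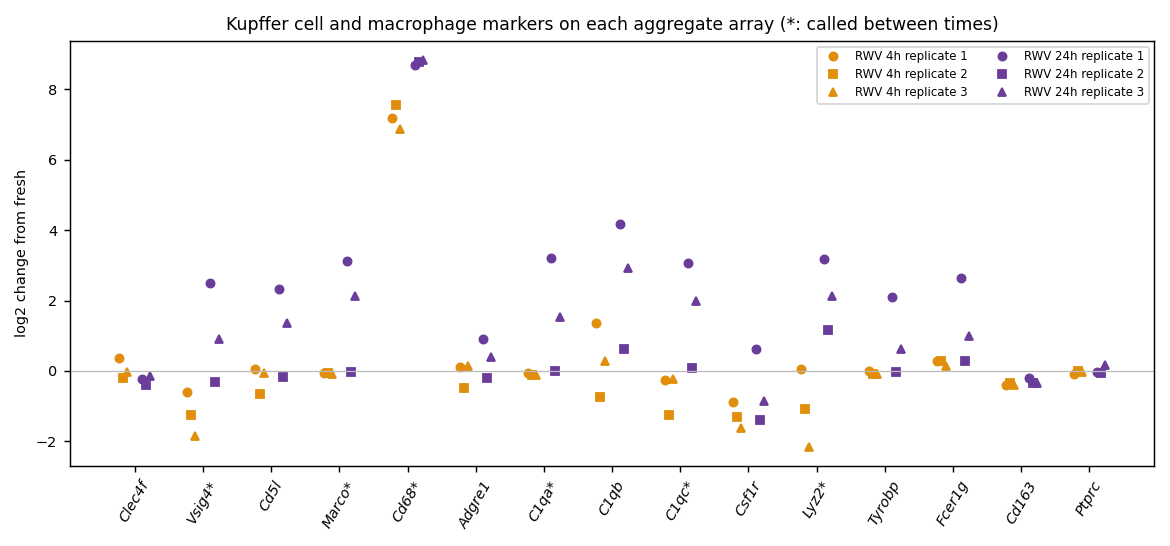
Values of 15 Kupffer cell and macrophage markers on the 6 RWV arrays, as log2 change from the fresh median; orange is 4 h, purple 24 h, and the symbol gives the replicate. Replicates 1 and 3 of 24 h (circle, triangle) are above the 4 h arrays for most markers, replicate 2 (square) is near them, and Cd68 is raised on all 6 arrays.

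Monolayers in the dish went through the same interval, and the arrays of the 4 groups allow the 2 changes to be compared. In TCD 6905 genes were called between 4 h and 24 h (55.6%), 4481 higher (36.1%) and 2424 lower (19.5%); at least 2-fold changes were called higher for 3017 genes (24.3%) and lower for 1483 (11.9%). Of the 5164 genes called in RWV, 4205 were also called in TCD in the same direction and 78 in the opposite direction. The difference between the 2 changes, tested as an interaction, was called for 1573 genes (12.7%). In 613 of these (4.93%) the RWV change was above the TCD change and in 960 (7.73%) below it; differences of at least 2-fold numbered 391 above (3.15%) and 711 below (5.72%). With reference gene centring this split was 1213 above and 642 below, and with array weights 1221 above and 1539 below. One TCD array at 4 h, replicate 2, had a low weight of 0.171, and without it 766 differences were called above and 881 below. The Actb control value of RNA integrity moved in TCD, from between -0.23 and -0.19 at 4 h to between -0.45 and -0.43 at 24 h. The Gapdh control value lay between -0.026 and 0.075 in TCD at 4 h and between -0.050 and -0.015 at 24 h. What part RNA integrity had in these differences was not tested.

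**Figure D5:**
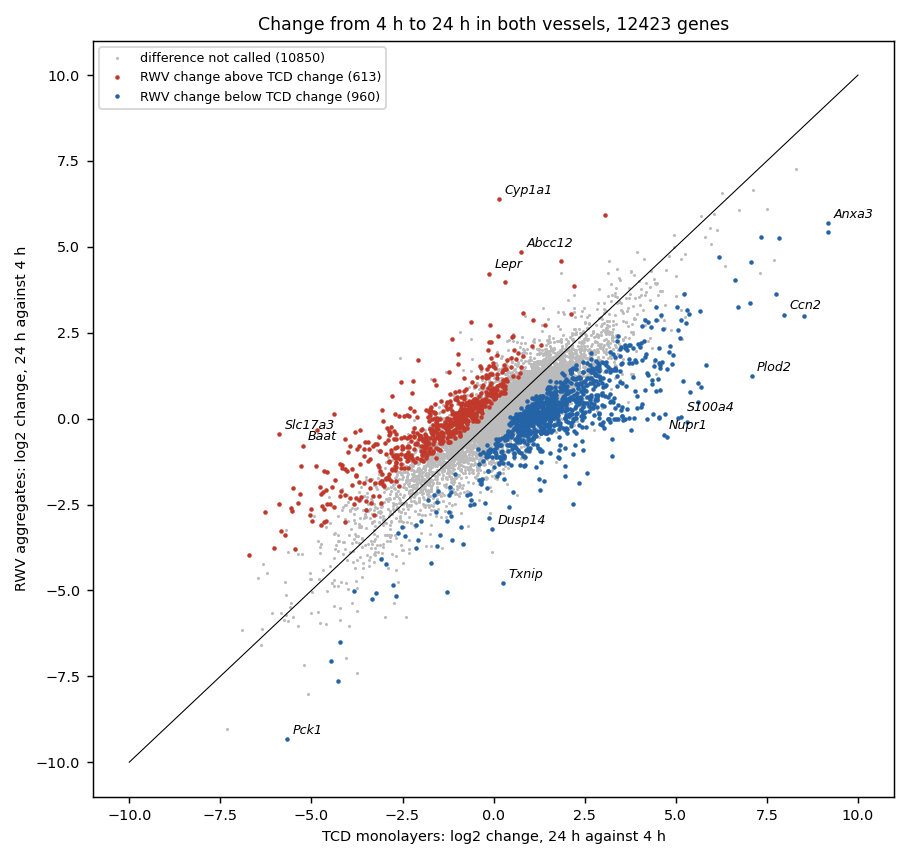
Log2 change from 4 h to 24 h of 12423 genes in RWV aggregates (vertical) against TCD monolayers (horizontal); the line marks equal changes, red and blue mark genes whose difference was called (613 above, 960 below), grey the rest. Cyp1a1, Abcc12 and Lepr rise in the aggregates and are not called in the monolayers, Slc17a3 and Baat fall in the monolayers, and Plod2, Nupr1 and S100a4 rise in the monolayers.

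Some genes of detoxification, transport and bile acids rose more, or fell less, in aggregates than in monolayers. Cyp1a1 changed by 0.14 in TCD (adjusted p = 0.78) against its rise of 6.40 in RWV, a difference of 6.25 (adjusted p = 1.1e-04). Abcc12, an export pump, read -0.33, 0.01 and 0.18 at 4 h and 4.13, 4.73 and 5.55 at 24 h in RWV, a rise of 4.85 ± 0.34, and changed by 0.75 in TCD (adjusted p = 0.083), a difference of 4.10. Lepr rose in RWV by 4.22 and changed by -0.13 in TCD, a difference of 4.35. Other genes in this direction fell in the dish and fell less, or were not called, in the aggregates. Baat, which joins bile acids to amino acids, read -0.87, -0.48 and -0.78 and then -1.68, -1.16 and -1.66 in RWV, a change of -0.79 ± 0.21, and fell by 5.24 in TCD. Slc17a3, a renal and hepatic anion carrier, changed by -0.45 in RWV (adjusted p = 0.31) and fell by 5.88 in TCD, a difference of 5.44. Hykk, a kinase of hydroxylysine, changed by -0.34 in RWV and fell by 4.85 in TCD, and Paqr9 changed by -1.38 and -5.29. Over all genes tested the difference was called above 0 for 4.93% and below 0 for 7.73%. Among liver transcription factors the difference was called above 0 for 7 of 32, Nr1i2 with 1.66 among them, and called below 0 for none. Of 30 genes of the NRF2 list 7 were called upward and none downward, Abcc4 with 2.71 among them, and of 31 fatty acid oxidation genes 9 were called upward and 2 downward, Fabp1 with -1.69 among the latter.

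Some actin and adhesion genes rose less in aggregates than in monolayers. Flna rose by 2.78 in RWV and 5.28 in TCD, a difference of -2.51 (adjusted p = 0.0017), Tuba1a by 2.57 and 5.06, and Anxa3 by 5.68 and 9.18. Ccn2 rose by 3.02 and by 7.97, a difference of -4.95. S100a4, a calcium-binding protein of motile cells, read -0.07, 0.01 and -0.02 at 4 h and 0.02, 0.01 and 0.05 at 24 h in RWV and rose by 5.15 in TCD. Acta1, skeletal actin, changed by -0.11 in RWV and rose by 5.30 in TCD, and Slc16a3, a lactate exporter, changed by 0.48 (adjusted p = 0.076) and rose by 5.62. Over all genes tested the difference was called downward for 7.73% and upward for 4.93%. Of actin genes 10 of 37 were called downward and 2 upward, and of focal adhesion genes 6 of 29 and 1. Of tubulin genes 1 of 13 was called downward, and the median change of that list was 1.22 in RWV and 1.24 in TCD. Of nucleolar genes 12 of 47 were called downward and none upward: in TCD 31 of them had risen and 2 had fallen. The median of this list on single arrays was 1.45 to 1.53 in RWV and 0.69 to 1.25 in TCD at 4 h. At 24 h it was 1.58 to 1.88 in RWV and 1.78 to 1.835 in TCD. The vessels thus stood apart at 4 h and overlapped at 24 h.

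For another group the fall was steeper in the aggregates. Txnip, which binds thioredoxin and answers to glucose, read 0.27, 2.91 and 1.82 at 4 h and -3.07, -3.59 and -2.72 at 24 h in RWV, a change of -4.79 ± 0.75, and changed by 0.25 in TCD. Dusp14 fell by 3.21 in RWV and changed by -0.05 in TCD. Pck1 changed by -9.34 in RWV and -5.67 in TCD, a difference of -3.67 (adjusted p = 8.9e-04). In the same order Ppp1r3c changed by -7.65 and -4.26, Akr1c6 by -5.15 and -2.67, Hpd by -3.40 and -1.48 and Oat by -4.24 and -2.95. The list of amino acid catabolism as a whole was called in both directions, with 6 of 46 genes upward and 5 downward and a median difference of -0.08. Over all genes tested 4.93% were called upward and 7.73% downward.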

How the data were processed

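RNA of 15 samples was measured on Affymetrix arrays. The authors deposited log2 values made with GCRMA, per the submitters' processing notes (no version is stated there). In the deposited table the fresh median is 0 for all 45101 probe sets. Probe sets with 1 symbol (34945; 932 had several and 9160 none) were used; 34741 matched the RefSeq gene table by Entrez number. Of all probe sets, 19608 were removed as background, which left 12423 of 18193 genes. A probe set was removed when its SD over the 15 arrays was below 0.5 and its correlation with a background profile was above 0.8. That profile was the median of the 20% least variable probe sets. A gene could thus be kept because it changed between the times. For the 5611 genes with more than 1 probe set kept, the probe set with the largest SD over the 15 arrays was used. This choice favours larger changes. Limma 3.58.1 in R 4.3.3 was fitted to the groups together, with no covariate (10 residual degrees of freedom) and Benjamini-Hochberg adjustment over all genes. The rule for named genes took the 15 largest non-overlapping called changes each way and up to 4 such members of each list. Where a list had no such member, the member with the smallest p was taken. For list members chosen by size, values that do not overlap follow from the rule. The rule also took the 8 largest differences from TCD each way and a few fixed genes (Vim, Actb, Alb, Hnf4a, Cebpa, Cyp7a1, Cyp3a11). Others are marked in the text or are markers, reference genes or genes of printed promoter windows. The members and lists were chosen with earlier results of these data known. P-values rest on 3 arrays per group, whose number limits the precision. Arrays give no read depth. Alternatives varied the filter, probe set choice, centring, weights, block and replicates.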

Additional observations from a re-analysis of the deposited data

Results flagged for a closer look

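Of 268 named genes, 57 were called for the difference between the change in RWV aggregates and the change in TCD monolayers from 4 h to 24 h (limma, adjusted p below 0.05), and the values here are that difference on the log2 scale, RWV minus TCD. Groups of 3 arrays were too small to test single arrays as outliers. The largest positive differences were in Cyp1a1 (6.25), Slc17a3 (5.44), N4bp2l1 (4.53), Hykk (4.51), Baat (4.45), Lepr (4.35), Abcc12 (4.10) and Paqr9 (3.91). The others above 0 were Gipc2 (2.89), Abcc4 (2.71), Mgll (2.56), Inhbc (2.05), Nr1i2 (1.66), Afp (1.64), Cldn14 (1.35), Ern1 (0.90), Idh2 (0.90) and Gbe1 (0.83).

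The largest negative differences were in Plod2 (-5.85), Serpinb9g (-5.54), Acta1 (-5.40), Lce1f (-5.30), Nupr1 (-5.14), Slc16a3 (-5.14), S100a4 (-5.09), Tmem108 (-5.04), Txnip (-5.04), Ccn2 (-4.95) and Reln (-4.78). Cytoskeletal, adhesion and membrane proteins among the rest were Cldn4 (-3.77), Anxa3 (-3.50), Pdlim7 (-2.58), Flna (-2.51), Tuba1a (-2.50) and Lims1 (-2.32). Enzymes and carriers were Pck1 (-3.67), Ppp1r3c (-3.38), Akr1d1 (-2.58), Akr1c6 (-2.48), Slco1b2 (-2.30), Sult2a8 (-2.10), Slc25a24 (-2.03), Hpd (-1.92), Agxt (-1.85), Fabp1 (-1.69), Oat (-1.29), Aass (-1.17) and Slc3a2 (-0.79). Signalling, translation and other genes were Dusp14 (-3.17), Inhba (-2.39), Eif4e (-2.15), Stab2 (-1.69), Dusp5 (-1.63), F11 (-1.14), Gars (-0.95), Dusp16 (-0.70) and Npm1 (-0.70).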

How the results depend on the processing

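The count of genes changed in RWV was 2984 (1772 higher, 1212 lower) when a change of at least 2-fold was also asked for, and reference gene centring gave 1881 higher and 5385 lower. Leaving out 1 RWV array gave 4424 to 4665 genes (2737 to 2971 higher, 1630 to 1704 lower), and leaving out TCD 4 h replicate 2 gave 5619 (3630 higher, 1989 lower). The count for the difference from TCD moved more: 3147 (2043 above) with no background filter, 2760 (1221 above, 1539 below) with array weights, 1213 above with reference gene centring, 597 (228 above, 369 below) at an adjusted p below 0.01, and 391 above at 2-fold or more. Leaving out 1 array gave 1070 to 1667 differences (411 to 766 above, 641 to 1142 below). The cause of these shifts was not tested, apart from the stricter thresholds.

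With the replicate number as a block 5435 genes were called in RWV and 1895 for the difference, and 5086 of the 5164 calls were kept. Same-numbered arrays deviated together with correlations of 0.069, 0.13 and 0.23, and each array correlated best with its own number, which is a hint from the data and not from the design. Direction turned for Pes1 (0.19) with the filter chosen on the other 9 arrays, for N4bp2l1 (-0.93) with the mean of probe sets, for Tmem108 (-0.42) with reference gene centring, and, without probe sets of shared sequence, for Qars (-0.10), Pfkl (-0.12), Rpl35 (-0.11), Tmsb10 (-0.11), Smad2 (-0.034) and the Dusp16 difference (0.012). Of 255 named genes called, 221 were called in all alternatives that measured them and 34 lost the call in at least 1. Values near the array background limit the largest folds. Sizes moved too: over the alternatives the change ran from -5.65 to -2.13 for Cyp7a1, from -5.91 to -2.72 for Slc1a2 and from 0.97 to 4.05 for Mcm3.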

Other observations

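Probe sets without a single gene symbol were outside the comparisons. For scale, of 22096 kept probe sets with 1 symbol, fitted separately, 5464 were called higher and 3014 lower at 24 h. Of 2711 with no symbol that passed the background filter, 262 were called higher and 222 lower in RWV aggregates at 24 h against 4 h (limma, adjusted p below 0.05). Of 622 with several symbols 238 were called higher and 79 lower.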
